A study of Homo sapiens with 24 samples.

Results

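The 10 genes described here were chosen as stemness markers claimed for polyploid giant cancer cells (PGCC). The set is MYC, KLF4, SOX2, POU5F1 (OCT4), NANOG, CD44, PROM1 (CD133), ALDH1A1, ALDH1A3 and SOX9. They were taken by symbol from the protein-coding rows of the deposited count table and are 10 of its 48162 rows, of which 20312 are protein-coding. The RNA came from PPC1, an established human prostate cancer cell line, with 6 libraries in each of 4 conditions. In the first, the cells grew as they were (parental cells) and were harvested on day 5 without irradiation. PGCC were induced with 8 Gy on day 2, harvested on day 5 and taken as the cells held back by a 20 micron filter, so that irradiation and selection by size cannot be told apart in these groups. Each population was also treated for 5 hours with 5 μM LCL521, an inhibitor of the lysosomal enzyme acid ceramidase (ASAH1), before harvest on day 5. All 4 conditions are the same cell line, and in each of the 6 runs they were harvested together.

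SOX2, POU5F1 and NANOG are the transcription factors at the centre of the pluripotency network of embryonic stem cells, and KLF4 and MYC complete the sets used to reprogram somatic cells. CD44, a receptor for hyaluronan, and PROM1, a membrane glycoprotein, are surface markers used to sort cells that found tumours. ALDH1A1 and ALDH1A3 oxidize retinaldehyde to retinoic acid and are the enzymes that aldehyde dehydrogenase activity assays mainly read in tumour cells, and SOX9 is a progenitor factor of several epithelia, the prostate included. Giant cells after therapy stress have been credited with several of these markers.

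Only 6 of the 10 genes were above the counting floor throughout. Library totals ran from 14835246 to 19906601 counts, so that 3 counts, the level below which a gene was not told from absent, were worth 0.151 to 0.202 counts per 1000000 counts of the library (CPM). This floor uses the library totals alone. The CPM levels of genes use the totals multiplied by scaling factors between libraries (TMM factors). MYC, KLF4, CD44, ALDH1A1, ALDH1A3 and SOX9 had 3 counts or more in all 24 libraries and were the 6 members that passed the filter of the edgeR test; POU5F1 was compared by permutation alone. SOX2 reached 3 counts in 3 libraries, PROM1 in 5 and POU5F1 in 19, and NANOG stayed below 3 counts in all 24. Libraries numbered 4 and 5 stood apart from the other 4 numbers in every condition, on a second principal component with 16.5% of the variance. Some results that lean on them are given with and without them. Others that changed in size but kept their call are given with them alone. Of 11 prostate and epithelial markers, KLK2, KLK3, TMPRSS2 and FOLH1 had a median of 1 count or less in every condition, whereas HOXB13 (744.9 CPM in parental cells and 427.4 CPM in PGCC), KRT18 and KRT8 were high. HOXB13 and KRT18 fell in PGCC by 0.80 and 0.46 on the log2 scale, and KRT8 rose by 1.35 (edgeR adjusted p = 0.000213, 0.00196 and 3.51e-06). Of these 11 markers 4 were tested, and 1 of those was not called. Of all genes tested in this comparison 47.4% passed, with 23.1% higher and 24.3% lower. Of 9 markers of other cell types 5 were tested, and PTPRC, COL3A1 and COL1A2 were higher in PGCC. The calls of PTPRC and COL1A2 were lost when single replicates were left out (highest edgeR adjusted p = 0.07 and 0.126). PTPRC went from a log2 fold change of 1.39 to 2.63 without replicates 4 and 5. The summed level of the list lay between 53.9 and 137 CPM in parental cells and between 88.3 and 212 CPM in PGCC. CD3E and HBB had a median of 0 counts. The part of all these markers in the results below was not tested. Because these are bulk libraries, fewer cells that express a gene and less of its RNA per cell cannot be told apart. The scale is also relative between libraries. A lower level is thus a lower share of the RNA and need not be less RNA per cell.

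**Figure D1:**
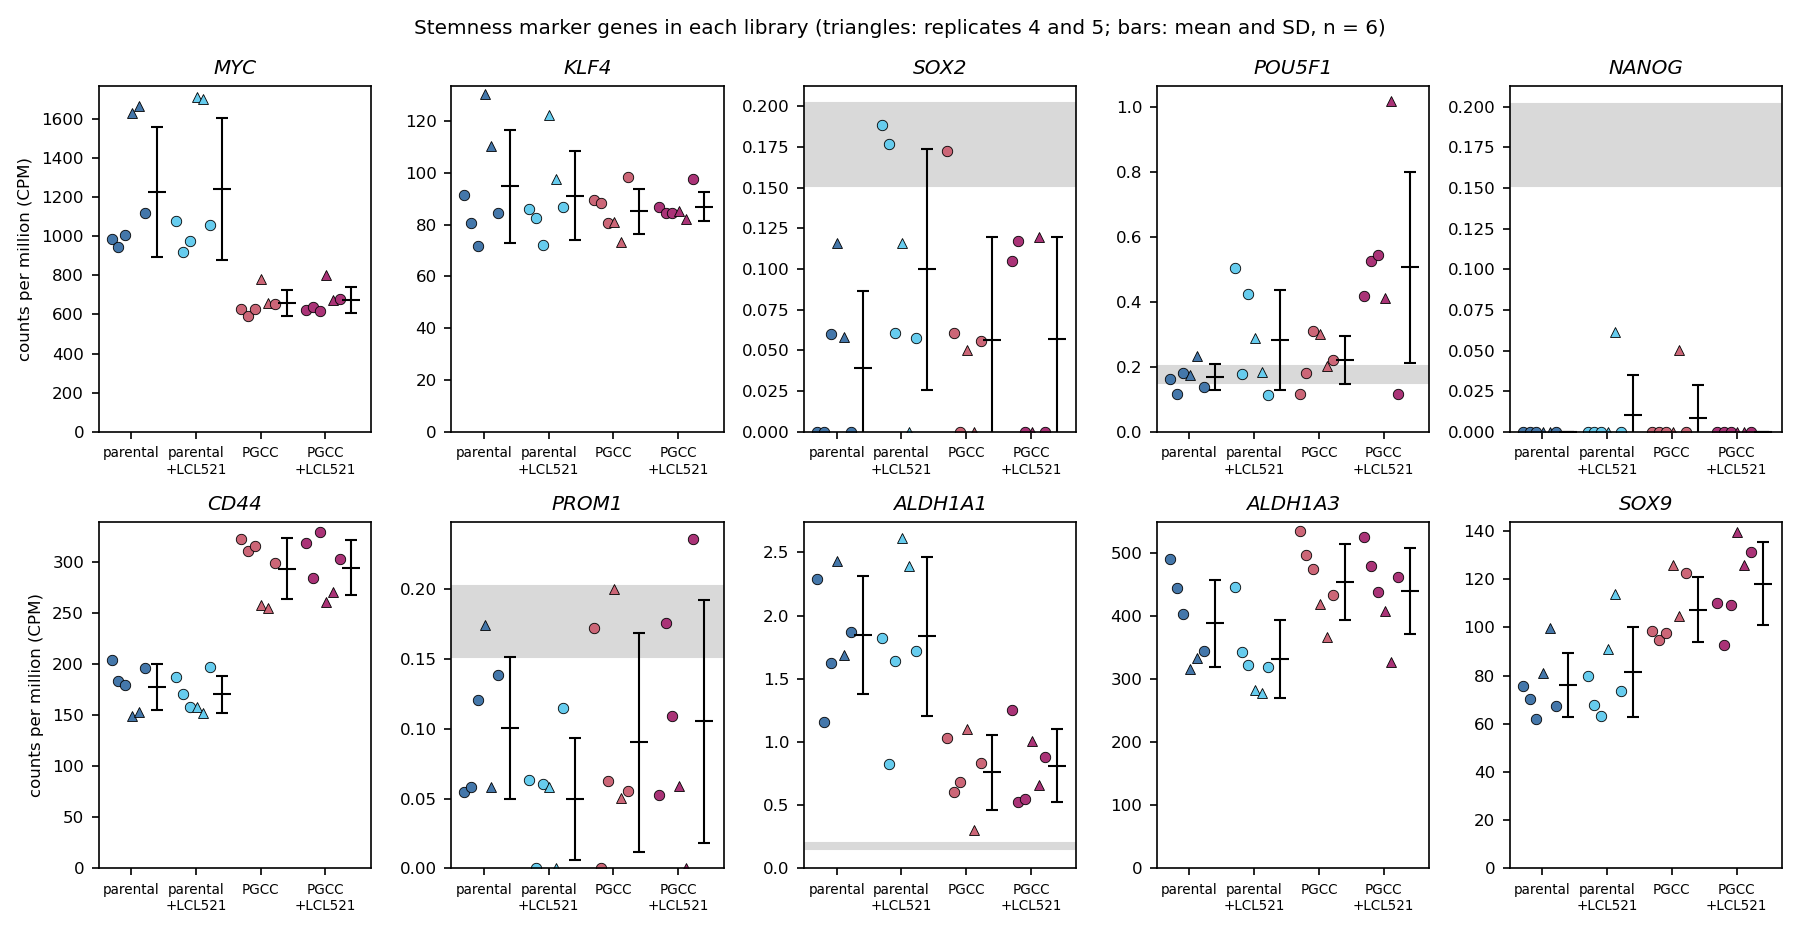
Level of each of the 10 genes in every library, in CPM (linear axis from 0), in the 4 conditions. Triangles are replicates 4 and 5, and the bars give the mean and SD of 6 libraries. The grey band marks 3 counts on the library totals without TMM factors (0.151 to 0.202 CPM). In PGCC, CD44 and SOX9 are higher, MYC and ALDH1A1 lower and ALDH1A3 a little higher, while KLF4 has no clear direction. The ranges of KLF4, ALDH1A3 and SOX9 overlap between the populations, and those of ALDH1A1 do so with LCL521. SOX2, PROM1, NANOG and most POU5F1 values outside PGCC with LCL521 lie in, near or below the band.

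NANOG, the homeodomain factor that holds embryonic stem cells in the undifferentiated state, was absent within the depth of these libraries. It had 2 counts in all over the 24 libraries, 1 in a parental library with LCL521 and 1 in a PGCC library, and 22 libraries had none. A count of 0 allows a level of up to 0.202 CPM in the shallowest library, on its total without TMM factors. The file lists it on chromosome 12 (chr12:7940390-7948655, hg19, plus strand). Its promoter shows how the core factors are wired to each other, since in stem cells OCT4 and SOX2 bind side by side to a composite element just upstream of its start. The 250 bases before the start, from the RefSeq promoter table on GRCh38.p14 (chr12:7789152-7789401, plus strand, 5′ to 3′), are shown with that element in capitals.

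NANOG: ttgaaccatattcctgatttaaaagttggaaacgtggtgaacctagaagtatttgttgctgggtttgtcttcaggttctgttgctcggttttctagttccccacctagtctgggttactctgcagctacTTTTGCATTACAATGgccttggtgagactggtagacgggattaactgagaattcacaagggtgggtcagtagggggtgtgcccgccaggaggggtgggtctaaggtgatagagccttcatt

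The element in capitals lay 121 to 107 bases before the start. Its 15 letters were taken from the NANOG promoter itself, so the match there was given. No other of the 34788 promoter windows of the same length in the table held these letters on either strand. Other forms of the element were not searched, so this count says nothing of where else it occurs. On the scale of CPM per kilobase of gene length, the mean level in PGCC was 0.0226 for SOX2, 0.0681 for POU5F1 and 0.0040 for NANOG, against 280.8 for MYC.

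SOX2, the partner of OCT4, lies on chr3:181429714-181432221 (hg19, plus strand). Its counts in parental cells ran from 0 to 2 with a median of 0.5, and in PGCC from 0 to 3 with a median of 1. With LCL521 they ran from 0 to 3 (median 1.5) in parental cells and from 0 to 2 (median 1) in PGCC. The ranges overlap in full and no fold change can be given at this depth. The gene sits inside SOX2-OT, a longer transcript of the same strand, which held 69 counts over all libraries against 26 for SOX2.

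POU5F1 (chr6:31130253-31148508, hg19, minus strand) was the best measured of the 3 core factors and was still near the floor. Parental cells had 2 to 4 counts with a median of 3, and parental cells with LCL521 had 2 to 8 with a median of 4. PGCC had 2 to 6 counts with a median of 4, and PGCC with LCL521 had 2 to 17 with a median of 8.5. The highest library, with 17 counts, was replicate 5 of PGCC with LCL521, and the 4 ranges overlap. The level in PGCC with LCL521 exceeded that in PGCC without it in 5 of 6 pairs, with a mean paired difference of 0.77 on the log2 CPM scale and SD 0.82 (two-sided exact permutation p = 0.0455 unpaired and 0.0938 over the pairs, n = 6). That was 1 of 28 such tests over the members, was not corrected for that number, and rests on fewer than 20 counts a library. PGCC and parental cells without LCL521 did not differ beyond their spread (exact permutation p = 0.173, n = 6).

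Reads of POU5F1 are also uncertain in their origin. POU5F1B, a retrogene copy, aligned with a POU5F1 transcript over 1375 columns with 97.7% identity in the GENCODE transcripts, and it took more counts than POU5F1 itself, 330 over the 24 libraries against 122. POU5F1B held 136 counts over the 6 parental libraries and 43 over the 6 of PGCC, with 8 to 36 and 3 to 9 a library. After LCL521 the sums were 127 and 24. Counts of the copies were too low for more than this description. POU5F1 also overlaps TCF19 on the other strand, which held 4401 counts, with medians of 129.5 in parental cells and 253 in PGCC, and the sources used here do not state whether strand was used in counting. No count fell on 2 of the 7 listed POU5F1 copies or on 7 of the 10 NANOG copies. NANOGP8, whose transcript matched NANOG in 99.5% of 918 aligned columns, had 2 counts in all.

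The wider pluripotency network was mostly silent as well, and the genes of it that were expressed moved in both directions. Of its 19 listed genes 6 could be tested between PGCC and parental cells, and 4 were higher and 2 lower, with a median log2 fold change of 0.67 beside -0.03 over all genes tested. Of all 13812 genes tested 6541 passed, or 47.4% in either direction, with 23.1% higher and 24.3% lower, and the counts of this and the later lists are to be read against that share. TERT, the catalytic subunit of telomerase, rose by 1.84 ± 0.40 on the log2 scale (SE; edgeR adjusted p = 0.00194), from 1.50 ± 1.08 to 5.30 ± 1.23 CPM (SD, n = 6). Its log2 fold change was 1.38 without replicates 4 and 5. DNMT3B, a de novo DNA methyltransferase, rose by 1.17 ± 0.14 (adjusted p = 1.57e-05) and KLF2 by 0.73 ± 0.16 (adjusted p = 0.00226). ESRRB, an orphan nuclear receptor of naive stem cells, fell by 1.60 on the log2 scale (SE 0.34, edgeR adjusted p = 0.0016), from 1.19 to 0.38 CPM. LIN28A, LIN28B, DPPA2, DPPA4, ZFP42, TDGF1 and SALL4 had medians between 0 and 3.5 counts in both groups. The genes that passed are thus a telomerase subunit, a methyltransferase and Krüppel-like factors that many epithelia express, beside NR5A2 and ESRRB, which fell.

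KLF4, a zinc finger factor that in epithelia restrains proliferation and in reprogramming helps to reopen the pluripotency network, was expressed at a moderate level and did not pass the test in any comparison. It lies on chr9:110247133-110252763 (hg19, minus strand). Parental cells had 71.5 CPM in the lowest library, a median of 87.9 and a highest of 130.5, and PGCC had 73.1, 84.6 and 98.2 CPM. The groups overlap throughout. The log2 fold change of PGCC against parental cells was -0.15 ± 0.14 (SE; 95% interval -0.44 to 0.15; edgeR adjusted p = 0.398), and with LCL521 in both groups it was -0.04 (95% interval -0.28 to 0.20; adjusted p = 0.766). The replicates moved in opposite directions. In the pairs numbered 4 and 5 KLF4 was lower in PGCC, with a mean paired difference of -0.64 on the log2 CPM scale, and in the other 4 pairs the mean was 0.12. The parental libraries 4 and 5 were the highest, at 130.5 and 110.2 CPM against 71.5 to 91.5 CPM in the others. Without replicates 4 and 5 the log2 fold change was 0.14 (edgeR adjusted p = 0.216). The sign of the KLF4 difference turned with the choice of replicates, and no direction is given.

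MYC, which drives ribosome biogenesis and cell growth, was the most abundant of the 10 genes and was lower in PGCC. It is listed on chr8:128747680-128753674 (hg19, plus strand). Parental cells had 942.5 CPM in the lowest library, a median of 1064 and a highest of 1666, and PGCC had 592.7, 643 and 783.6 CPM. No PGCC library reached the lowest parental library. The level fell by 0.89 on the log2 scale (SE 0.15, 95% interval -1.21 to -0.57, edgeR adjusted p = 0.000263), which is 1.85-fold lower, and it was lower in 6 of 6 pairs (exact permutation p = 0.0312, the smallest that 6 pairs can give). Of the 6 members tested 4 passed, CD44 and SOX9 higher and MYC and ALDH1A1 lower, against 47.4% of all genes (23.1% higher and 24.3% lower), so that the count by itself says little. With LCL521 in both groups 6758 of 13818 genes passed (48.9%, with 25.0% higher and 23.9% lower), and of the 6 members 3 were higher and 2 lower. MYC then went from a median of 1068 to 657.3 CPM, with no overlap, and fell by 0.86 (SE 0.16, adjusted p = 0.000551). The fall was larger in replicates 4 and 5, with a mean paired difference of -1.20 against -0.69 in the others. Parental libraries 4 and 5 held 1629 and 1666 CPM against 942.5 to 1121 CPM in the other 4. Even so MYC stayed among the strongest genes of PGCC: by CPM per kilobase it ranked 103rd of the protein-coding genes in parental cells and 164th in PGCC.

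**Figure D2:**
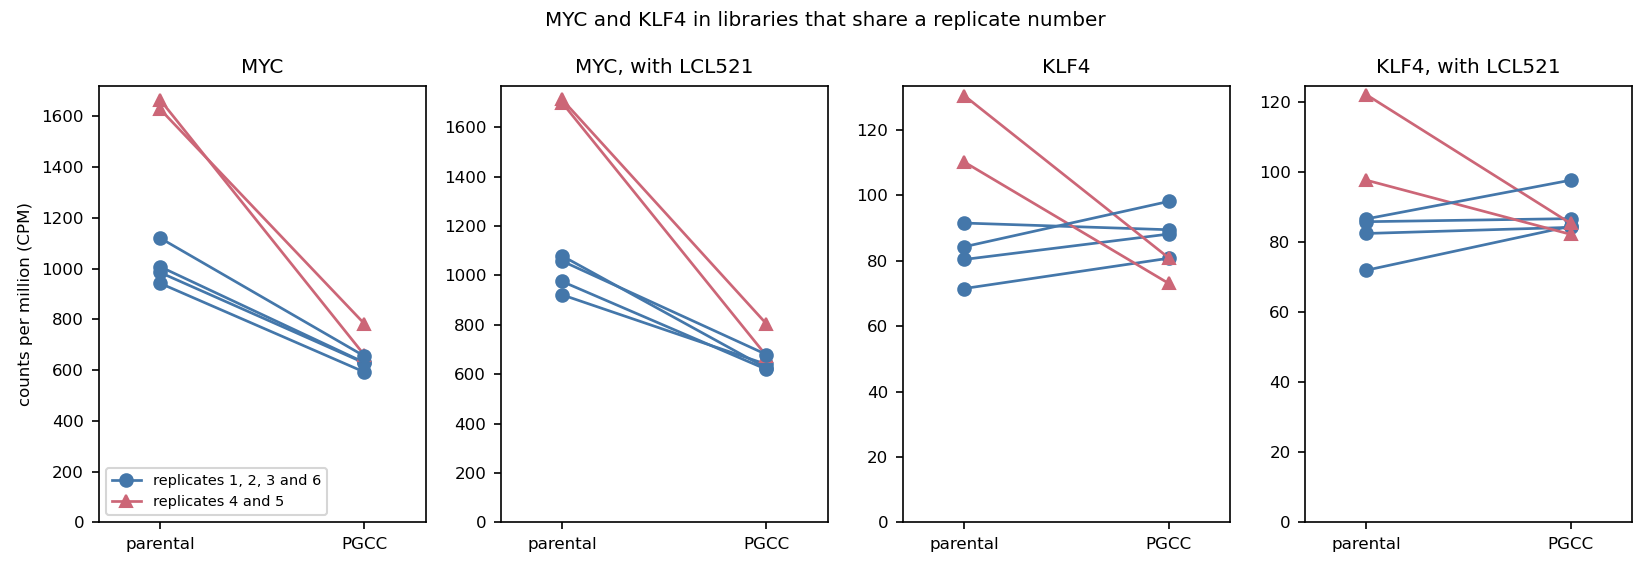
MYC and KLF4 in parental cells and PGCC, in CPM (linear axis from 0), with lines joining libraries of the same replicate number, without and with LCL521. MYC is lower in PGCC along every line. KLF4 is lower along both lines of replicates 4 and 5 and a little higher along most of the other lines.

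Genes around MYC were mostly lower too. MYC acts as a dimer with MAX, and MXD proteins, MXI1, MNT and MGA compete for MAX. Of the 12 listed genes of this network 10 were tested, and 1 was higher and 7 lower in PGCC (median log2 fold change -0.60). MXI1, a repressor that opposes MYC, fell by 1.04 (SE 0.14, adjusted p = 3.99e-05), and MGA fell by 0.64 (SE 0.18, adjusted p = 0.00852). For MYCL1, another MYC family member, the log2 fold change was -0.93 (adjusted p = 0.0284), for MXD3 0.92 (adjusted p = 0.0308), and both calls were lost when single replicates were left out (highest adjusted p = 0.106 and 0.0745). The lower genes included both the partner MAX, which fell by 0.37 (SE 0.095, adjusted p = 0.00547), and its competitors. Of 15 textbook MYC targets 14 were tested, and none was higher and 6 were lower (median log2 fold change -0.31). They were CDK4, a cell cycle kinase, which fell by 0.59 (adjusted p = 7.02e-05), the nucleolar proteins NPM1 (-0.56) and NCL (-0.54), SRM, an enzyme of polyamine synthesis (-0.48), TFRC (-0.45) and NOP58 (-0.38). ODC1 was level at 0.00 on that scale (adjusted p = 0.998), and CAD and LDHA had 0.21 and 0.19 (adjusted p = 0.131 and 0.417).

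Of 14 other KLF genes 9 were tested, and 3 were higher and 2 lower in PGCC (median log2 fold change 0.53), a share near the 47.4% of all genes. KLF12 rose by 1.48 ± 0.25 (SE; adjusted p = 0.000277) and KLF6, an early response factor of epithelia, by 1.46 ± 0.14 (adjusted p = 1.99e-06). KLF13 fell by 1.10 (SE 0.25, adjusted p = 0.00245) and KLF11 by 0.76 (SE 0.14, adjusted p = 0.000506). The log2 fold change of KLF13 was -0.77 without replicates 4 and 5.

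CD44 was higher in PGCC in every pair. It is listed on chr11:35160417-35253949 (hg19, plus strand). Parental cells had 149.5 CPM in the lowest library, a median of 181.7 and a highest of 204, and PGCC had 255.3, 305.2 and 323.3 CPM. The lowest PGCC library was above the highest parental one. The level rose by 0.74 ± 0.097 on the log2 scale (SE; 95% interval 0.53 to 0.94; edgeR adjusted p = 3.2e-05), which is 1.66-fold. With LCL521 in both groups it rose by 0.82 ± 0.086 (adjusted p = 3.24e-06), from a median of 164.7 to 294.3 CPM, again with no overlap. Unlike MYC and KLF4 its change differed little between the replicates, with mean paired differences of 0.76 in replicates 4 and 5 and 0.71 in the others.

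Of 15 listed genes of hyaluronan and of CD44 processing 12 were tested, and 8 were higher and 2 lower in PGCC, with a median log2 fold change of 0.80 beside -0.03 over all genes. VCAN, a proteoglycan that binds hyaluronan, rose by 2.93 ± 0.47 (SE; adjusted p = 0.000171), from a low 0.26 to 2.01 CPM. HAS2, which makes hyaluronan, rose by 2.43 ± 0.39 (adjusted p = 0.000157), from 1.58 ± 1.08 to 8.48 ± 0.73 CPM (SD, n = 6), and HMMR, a hyaluronan-binding protein of the mitotic spindle, by 2.26 ± 0.45 (adjusted p = 0.000945). TNFAIP6 (1.57), HAS3 (1.02) and HYAL3 (0.98) also rose, as did EZR (0.63) and MSN (0.57), which tie CD44 to the actin cortex. ESRP1, a splicing factor that favours the variant exons of CD44, fell by 4.96 (SE 1.08, adjusted p = 0.00187), and its relative ESRP2 by 0.99 (SE 0.18, adjusted p = 0.000534). ESRP1 varied widely in parental cells, from 0.87 to 66 CPM, the fall was 2.45 without replicates 4 and 5 (adjusted p = 0.00218), and limma-voom did not call it (adjusted p = 0.0563). HMMR rose by 3.17 without those replicates. The counts are per gene, so which CD44 isoforms were made cannot be read from them.

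PROM1, the other surface marker, was near the floor in every condition (chr4:15964699-16086001, hg19, minus strand). Its counts ran from 1 to 3 in parental cells (median 1.5), 0 to 2 with LCL521 (median 1), 0 to 4 in PGCC (median 1) and 0 to 4 in PGCC with LCL521 (median 1.5). The ranges overlap, and a difference was not detectable at this depth. Of 17 other markers used for cancer stem cells 10 could be tested, and 2 were higher and 2 lower in PGCC (median log2 fold change 0.22). NT5E (CD73), which makes adenosine, rose by 1.41 ± 0.16 (SE; adjusted p = 7.78e-06) and ALCAM (CD166), an adhesion molecule, by 1.13 ± 0.24 (adjusted p = 0.0014). BMI1, a Polycomb subunit that sustains self-renewal, fell by 0.94 (SE 0.12, adjusted p = 2.66e-05). LGR5, a receptor of Wnt stem cell niches, stood at -0.74 (adjusted p = 0.0204), a call that was lost when single replicates were left out (highest adjusted p = 0.0821). Blocking on the replicate number called 7 of these 10 genes instead of 4, 4 higher and 3 lower, against 56.2% of all genes. Without replicates 4 and 5, 8 genes of the list were called, against 54.6% of all genes. With the block as well 9 were called, against 64.3% of all genes.

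**Figure D3:**
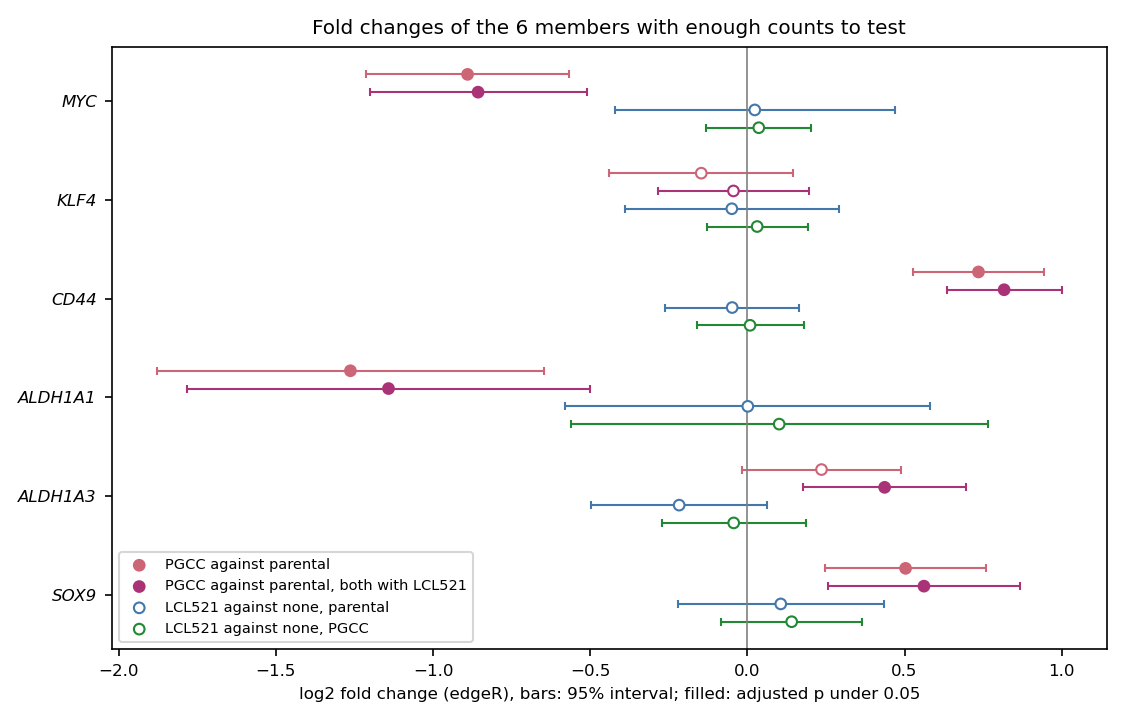
Log2 fold changes of the 6 testable genes in 4 comparisons (edgeR, bars are 95% intervals, filled points have an adjusted p under 0.05). Between PGCC and parental cells MYC and ALDH1A1 lie left of 0 and CD44 and SOX9 right of it, with and without LCL521. ALDH1A3 lies right of 0 in both, and its interval covers 0 only without LCL521. Every interval of a LCL521 effect covers 0.

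Both aldehyde dehydrogenases among the members were present, at very different levels, and they did not move together. ALDH1A3 (chr15:101402129-101456831, hg19, plus strand) was the abundant one, at 99.0 CPM per kilobase in parental cells. ALDH1A1 (chr9:75515578-75695358, hg19, minus strand) was at 0.875. Their promoters, from the RefSeq table on GRCh38.p14 and 250 bases each before the start, 5′ to 3′, are set side by side because the same CCAAT box stands at nearly the same distance in both and because ALDH1A1 also holds the octamer ATGCAAAT, the letters that POU factors read. ALDH1A1 is on chr9:72953054-72953303 (minus strand) and ALDH1A3 on chr15:100879581-100879830 (plus strand), and capitals mark the CCAAT box and the octamer.
ALDH1A1: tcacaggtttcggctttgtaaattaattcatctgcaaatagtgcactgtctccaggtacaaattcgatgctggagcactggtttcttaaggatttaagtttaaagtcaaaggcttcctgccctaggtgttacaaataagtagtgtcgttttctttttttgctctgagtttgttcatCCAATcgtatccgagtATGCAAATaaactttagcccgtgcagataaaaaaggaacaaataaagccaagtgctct
ALDH1A3: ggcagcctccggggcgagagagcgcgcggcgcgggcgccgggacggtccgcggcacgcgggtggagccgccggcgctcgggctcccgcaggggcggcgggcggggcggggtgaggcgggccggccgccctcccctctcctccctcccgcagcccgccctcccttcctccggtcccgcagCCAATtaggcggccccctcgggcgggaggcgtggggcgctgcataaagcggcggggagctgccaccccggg

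The CCAAT box stood 74 to 70 bases before the start in ALDH1A1 and 71 to 67 in ALDH1A3, and 32% of all promoter windows in the table hold the letters CCAAT on either strand. The octamer of ALDH1A1 lay 58 to 51 bases before the start, and 1.62% of windows hold one. The windows differ in base composition, with 38.4% G and C in ALDH1A1 and 82.4% in ALDH1A3, against a median of 58% over all windows. Both strands were also searched for the E-box CACGTG (6.31% of windows), the TATA box TATAAA (10.8%) and the AP-1 site TGANTCA (6.59%), of which neither window held one. Of the 10 genes 7 had an entry in the table, and MYC, POU5F1 and SOX9 had none.

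ALDH1A1 was lower in PGCC on few counts. Parental cells had 20 to 42 counts with a median of 28, and PGCC had 6 to 22 with a median of 13. On the CPM scale these were 1.16 to 2.44 with a median of 1.78, and 0.30 to 1.10 with a median of 0.76, so that the groups do not overlap. The level fell by 1.26 on the log2 scale (SE 0.29, 95% interval -1.88 to -0.65, edgeR adjusted p = 0.00247), which is 2.40-fold lower, and it was lower in 6 of 6 pairs. With LCL521 in both groups the counts were 14 to 45 (median 29.5) and 9 to 24 (median 13), the CPM ranges overlap, and the level fell by 1.14 (SE 0.30, adjusted p = 0.00586). Without replicates 4 and 5 that second difference was -0.86 and was not called (adjusted p = 0.0612).

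ALDH1A3 was higher in PGCC in every pair, by little. Parental cells had 316.1 CPM in the lowest library, a median of 373.4 and a highest of 490.3, and PGCC had 366.8, 454.1 and 535 CPM. The groups overlap. The log2 fold change was 0.24 ± 0.12 (SE; 95% interval -0.02 to 0.49; edgeR adjusted p = 0.116), and when the fit was blocked on replicate number it was 0.24 ± 0.06 and was called (adjusted p = 0.00707; 56.2% of all genes passed in that fit), with 6 of 6 pairs higher. With LCL521 in both groups the medians were 321.2 and 449.6 CPM, and the level rose by 0.44 ± 0.12 (SE; adjusted p = 0.0084). The groups overlap there too, with a highest of 446.3 CPM in parental cells and a lowest of 326.9 CPM in PGCC. Under the block it was 0.44 ± 0.064 (adjusted p = 0.000358), in a fit that called 56.3% of all genes. ALDH1A3 shares its locus with a long non-coding RNA of the same strand (RP11-66B24.2, 3969 counts over all libraries) and an antisense one (RP11-66B24.4, 2285 counts), both far below its own 167749 counts.

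The other aldehyde dehydrogenases were divided in the same way. Of 17 genes 13 were tested, and 4 were higher and 4 lower in PGCC, with a median log2 fold change of -0.03, the same as over all genes. ALDH1A2, a further ALDH1A gene, stood at -0.03 (SE 0.091, adjusted p = 0.804). ALDH7A1 rose by 1.37 ± 0.12 (SE, adjusted p = 9.63e-07). ALDH2, the mitochondrial enzyme that clears acetaldehyde, fell by 1.76 (SE 0.32, adjusted p = 0.000464) from a level of only 1.06 CPM. Its log2 fold change was -1.26 without replicates 4 and 5 (edgeR adjusted p = 0.0114). ALDH5A1 fell by 1.08 (SE 0.12, adjusted p = 4.89e-06) and ALDH3A2 by 0.66 (SE 0.088, adjusted p = 3.54e-05). In the retinoic acid pathway, which the products of ALDH1A1 and ALDH1A3 feed, 8 of 16 genes were tested, and 3 were higher and 4 lower (median log2 fold change -0.49). The dehydrogenase DHRS9, which makes retinaldehyde, rose by 2.65 ± 0.33 (adjusted p = 2.2e-05), from 6.49 ± 4.23 to 40.7 ± 5.64 CPM (SD, n = 6), and the retinoic acid carrier CRABP2 by 1.36 ± 0.14 (adjusted p = 3.88e-06). RDH10, which also makes retinaldehyde, rose by 0.75. The receptor RXRA fell by 0.88 (SE 0.12, adjusted p = 3.67e-05), RXRB by 0.62 and RARG by 0.60, and DHRS3, which turns retinaldehyde back to retinol, fell by 0.82 (SE 0.22, adjusted p = 0.00658), or by 0.51 without replicates 4 and 5. Of the genes that passed, those that make retinaldehyde and the carrier were higher and the receptors lower.

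SOX9 was higher in PGCC, with a small overlap without LCL521 (chr17:70117161-70122561, hg19, plus strand). Parental cells had 62.1 CPM in the lowest library, a median of 73.0 and a highest of 99.7, and PGCC had 94.8, 101.5 and 126 CPM. Only the highest parental library, replicate 5, reached into the PGCC range. The level rose by 0.50 ± 0.12 (SE; 95% interval 0.25 to 0.76; edgeR adjusted p = 0.00338), which is 1.42-fold, in 6 of 6 pairs. With LCL521 in both groups it rose by 0.56 ± 0.14 (adjusted p = 0.00473), from a median of 76.8 to 118 CPM. The overlap was larger there, with a highest of 113.9 CPM in parental cells and a lowest of 92.7 CPM in PGCC. The paired differences were smaller in replicates 4 and 5 (mean 0.35) than in the others (mean 0.58). Of 17 other SOX genes 7 were tested, and 1 was higher and 3 lower (median log2 fold change -0.48). SOX12 fell by 1.34 (SE 0.20, adjusted p = 8.09e-05). SOX21 (-0.74), SOX4 (-0.48) and SOX15 (0.90) passed with all libraries, with adjusted p of 0.0157, 0.0255 and 0.0294, and each lost its call when single replicates were left out (highest adjusted p = 0.0747, 0.0941 and 0.0768). SOX4 was -0.24 without replicates 4 and 5 (adjusted p = 0.0547).

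**Figure D4:**
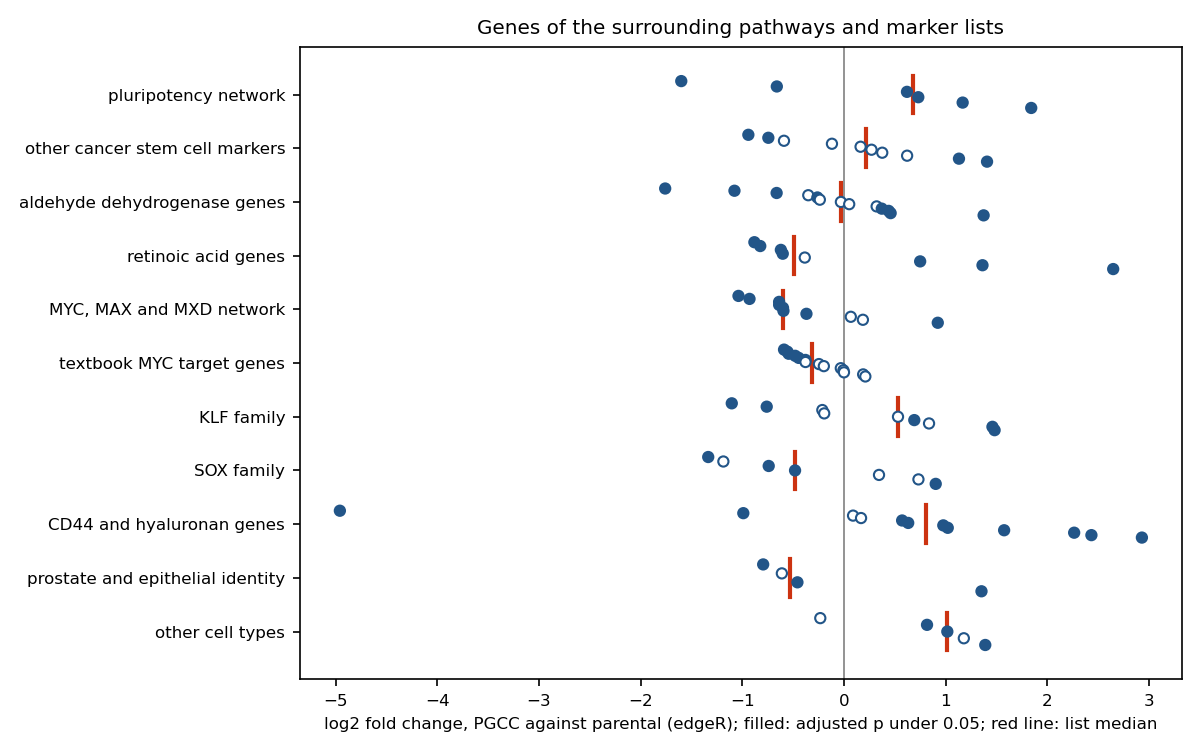
Log2 fold changes of PGCC against parental cells for the tested genes of the 9 pathway and family lists and the 2 marker lists (edgeR, filled points have an adjusted p under 0.05, red lines are list medians). The MYC, MAX and MXD network and the MYC targets lie mostly left of 0 and the CD44 and hyaluronan genes mostly right of it, while the aldehyde dehydrogenases are spread evenly about 0.

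Per kilobase, the order of the mean levels in PGCC was MYC (280.8 CPM per kilobase), ALDH1A3 (115.8), CD44 (64.04), KLF4 (30.3), SOX9 (27.3) and ALDH1A1 (0.36). The order was the same in parental cells, with 522.5 for MYC, 99.0 for ALDH1A3, 38.7 for CD44, 33.7 for KLF4, 19.3 for SOX9 and 0.875 for ALDH1A1. The ranges of CD44 and KLF4 overlap in parental cells, and those of KLF4 and SOX9 overlap in PGCC. The most abundant marker was thus one that was lower in PGCC, and SOX2, POU5F1, NANOG and PROM1 were at the bottom in both populations.

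None of the 6 genes tested with edgeR passed for LCL521 in the unblocked fit. In parental cells none of 13277 genes passed with edgeR (0%), with 71 at an unadjusted p under 0.05 and none called by DESeq2 or limma-voom. In PGCC 1 of 14151 genes passed (0.00707%), INSIG1, a sterol-regulated protein of the endoplasmic reticulum and no member (log2 fold change 0.67 ± 0.091, SE, edgeR adjusted p = 0.0395), which is named after its value was seen. DESeq2 called 6 genes there and limma-voom none, and 218 had an unadjusted p under 0.05. The log2 fold changes with LCL521 lay between -0.22 (ALDH1A3) and 0.11 (SOX9) in parental cells and between -0.04 (ALDH1A3) and 0.14 (SOX9) in PGCC. Their 95% intervals bound what could have been missed: for MYC -0.42 to 0.47 in parental cells and -0.13 to 0.20 in PGCC, and for CD44 -0.26 to 0.16 and -0.16 to 0.18. Blocking on the replicate number raised the calls to 115 genes in parental cells (0.866%) and 234 in PGCC (1.65%). ALDH1A3 was then the only member called, in parental cells, where it fell by 0.22 (SE 0.041, edgeR adjusted p = 0.0204) and was lower in 6 of 6 pairs, from a median of 373.4 to 321.2 CPM. Without replicates 4 and 5 the blocked difference was -0.22 and was not called (adjusted p = 0.194). In PGCC it was lower in 5 of 6 pairs and not called (log2 fold change -0.05, adjusted p = 0.551 with the block). Of the list genes, the block called KLF5 (-0.30), EZR (-0.20) and RDH10 (0.42) in parental cells and MNT (0.25), MXD1 (0.23) and KLF6 (0.22) in PGCC.

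The effect of LCL521 was not shown to differ between PGCC and parental cells for any member. Of 14555 genes none passed the interaction test in edgeR, with or without the block (0%), and 60 had an unadjusted p under 0.05 without it. ALDH1A3 had the largest difference of the members, 0.18 on the log2 scale (SE 0.18, 95% interval -0.20 to 0.56, adjusted p = 1). Its paired difference of effects was positive for 6 of 6 replicate numbers, with a mean of 0.18 and SD 0.084 (exact permutation p = 0.0312, the smallest that 6 pairs can give, not corrected over the members).

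The genes whose pattern was most like each member were taken by Pearson's r of log2 CPM over the 24 libraries, among 10157 protein-coding candidates. The closest were PCIF1 (r = 0.98) and FURIN (0.97) for MYC, SLIT2 and DAPK3 (both 0.98) for CD44, ADORA2B (0.94) and ENAH (0.92) for ALDH1A3, PIM1 and PPP1R18 (both 0.93) for SOX9, ZDHHC9 (0.93) and ZNF496 (0.89) for ALDH1A1, and NFE2L2 and TBC1D20 (both 0.86) for KLF4. No gene stands in more than 1 of these pairs. Only the closest pair was taken for each member, so this does not show that the members separate. The 24 points share 4 conditions and 6 replicate numbers, so the values describe these libraries. SLIT2, a secreted guidance protein, went with CD44 from 9.60 ± 3.46 to 49.6 ± 11.9 CPM, and FURIN, a proprotein convertase, went with MYC from 62.7 ± 34.2 to 23.0 ± 5.16 CPM (SD, n = 6). Among the members themselves, r was -0.92 between MYC and CD44, 0.83 between MYC and ALDH1A1, and 0.18 between ALDH1A3 and SOX9. With condition means removed, MYC and SOX9 went from -0.37 to 0.81, CD44 and ALDH1A3 stayed at 0.71 after 0.74, and CD44 and ALDH1A1 went from -0.74 to -0.01.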

How the data were processed

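RNA-seq libraries of PPC1 cells (24, 6 in each of 4 conditions) were analysed from the table of read counts per gene that the authors deposited. According to the paper's methods and the submitters' processing notes, reads were aligned to hg19 with STAR and counted on genes with HTSeq, without normalization, and the use of strand is not given in the sources used here. Replicate numbers come from the sample labels. Counts were tested with edgeR 4.0.16 in R 4.3.3 (quasi-likelihood test, TMM factors, filterByExpr with at least 10 counts and a total of at least 15) on the 12 libraries of each comparison, and on all 24 for the interaction, with Benjamini-Hochberg adjusted p under 0.05 over all genes. SE is the fold change over the square root of F. For CPM, counts were divided by library totals multiplied by TMM factors of all 24 libraries. A prior count of 2 was used for log2 CPM. Exact permutation tests ran over all 924 divisions of 6 against 6 libraries (smallest p 0.00216) or 64 sign changes. Similar genes needed a mean of 2 log2 CPM.

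A second fit of each comparison held replicate number as a block. The series' design text says that the experiment was done 6 times with all conditions harvested in parallel; the labels do not say that a number marks such a run, so pairing was checked in the data. Deviations from the condition means of same-numbered libraries correlated at 0.171 to 0.813, over 0.1 in every pair of each comparison. For differently numbered libraries the medians lay between -0.337 and -0.0799. Centring on the condition means lowers these by itself, so the check does not show that a number marks a run. Alternatives were DESeq2 1.42.0, limma 3.58.1 (voom), other scaling factors and filters, all libraries in one fit and replicates left out; leaving out replicates 4 and 5 with the block was chosen after seeing the data. The code was tested on simulated counts. Named list genes were up to 4 of each list with the largest changes past the threshold, and any list gene called with LCL521; other list genes named were chosen after their values were seen. The members and lists were chosen with earlier results of these data known. MYCL stands in the table as MYCL1. CD24 and PECAM1 were not analysed here, and values of some marker genes are not reported here. Counting error sets the precision of low genes. Promoters are from RefSeq (GRCh38.p14); transcripts of copies are from GENCODE 29, aligned with Biopython 1.88.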

Additional observations from a re-analysis of the deposited data

Results flagged for a closer look

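A single library stood far from the other 5 of its condition in 2 of the 24 sets of 6 libraries that were examined for the 6 testable genes, where chance flags about 1 in 20. In PGCC with LCL521, MYC was highest in replicate 4, at 804 CPM against 680 CPM in the next library, and this gap was 0.645 of the whole range. In the same condition KLF4 was highest in replicate 6, at 97.7 CPM against 86.7 CPM in the next library, a gap of 0.691 of the range. Neither library changes the calls of these genes: MYC was lower in PGCC and KLF4 was not called under each single replicate left out.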

How the results depend on the processing

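MYC and ALDH1A1 were lower and CD44 and SOX9 higher in PGCC than in parental cells under every alternative run that tested them. Each of them kept its call in those runs. With LCL521 in both groups the 5 called genes kept direction and call too, except ALDH1A1 without replicates 4 and 5 (-0.86). In both comparisons ALDH1A1 was not tested under the filter of at least 10 counts in every library. ALDH1A3 without LCL521 was called with library totals (0.33), with the replicate block (0.24) and with the block without replicates 4 and 5 (0.23). KLF4 turned positive without replicates 4 and 5, with and without the block (0.14 for both), and with LCL521 in both groups it did so with library totals (0.0101), without replicates 4 and 5 (0.15, with or without the block) and without replicate 4 (single replicates left out, -0.11 to 0.068). Library totals moved the share of higher genes among those called between PGCC and parental cells from 48.7% to 60.2%, and the median log2 fold change from -0.03 to 0.07; without a filter 7675 of 29759 genes passed, and single replicates left out gave 5529 to 6333.

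The number of genes called with LCL521 in parental cells went from 0 to 115 with the block and to 3 with the block without replicates 4 and 5. In PGCC it went from 1 to 234 with the block, 129 with the block without replicates 4 and 5, 6 in DESeq2, and 0 in limma-voom, with all 24 libraries in one fit, without replicates 4 and 5, and with any single replicate but 2 left out (range 0 to 1). The small LCL521 effects that were not called changed sign as follows. ALDH1A1 in parental cells was -0.046 in limma-voom, -0.0020 with upper quartile factors, -0.000678 without a filter, -0.011 with the block, -0.00708 with all libraries, -0.19 without replicates 4 and 5, -0.20 with the block as well, and -0.11 to 0.070 with single replicates left out. KLF4 without replicates 4 and 5, and the same with the block, was 0.00862 and 0.00945 in parental cells, -0.017 and -0.016 in PGCC, and -0.015 for both in the interaction. CD44 in PGCC was -0.015 and -0.018 under those settings and -0.0051 to 0.037 with single replicates left out, and ALDH1A1 in PGCC was -0.016 to 0.18. In the interaction, MYC was -0.0020 with library totals and -0.017 to 0.042, and ALDH1A1 -0.035 to 0.21, with single replicates left out. The cause was not tested. The replicate block changed no call of a member other than ALDH1A3. Depth limits SOX2, POU5F1, NANOG and PROM1, which did not pass the filter of the edgeR test, and leaves ALDH1A1 with a wide interval.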
